A study of Rattus norvegicus with 10 samples.

Results

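The genes described here carry fatty acids from the blood into the mitochondrion and break them down. They are 30 genes chosen by name: proteins of uptake and activation, the carnitine shuttle with its malonyl-CoA control, the enzymes of mitochondrial beta-oxidation, and a few mitochondrial proteins tied to the pathway. All 30 were found on 14 chromosomes, each as a single entry, among 39784 gene names. Of these, 29 reached the mean of 1 TPM needed for testing, as did 13420 genes in all, and Ucp3 was listed at 0 in every library. TPM is transcript abundance scaled for transcript length and library total, so levels can be compared between genes.

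RNA was sequenced from neonatal rat cardiomyocytes, wild type by their labels and taken from heart, kept in M199 medium with fetal bovine serum. One group received the treatment labelled Ad-Xon-YAP5SA and the other Ad-Xon-YAP5SA-S94A, with 2 libraries each. YAP is the transcriptional coactivator held back by the Hippo pathway; YAP5SA is an activated form, and the further S94A change disrupts its binding to TEAD transcription factors. Both groups therefore carried an activated YAP, no GFP or untreated RNA library was used, and each difference is one between the 2 forms. The promoter driving the transgenes and the exact age of the animals are not given in the sources used here, and the labels call the libraries biological replicates without saying whether they came from separate isolations, so p-values measure the spread between these libraries only.

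Heart muscle draws most of its energy after birth from long-chain fatty acids. Lipoprotein lipase frees them from circulating triglyceride, CD36 takes them up, fatty acid-binding proteins carry them through the cytosol, and acyl-CoA synthetase traps them as acyl-CoA. Carnitine palmitoyltransferase 1 (CPT1) on the outer mitochondrial membrane, the gatekeeper that malonyl-CoA inhibits, hands the acyl group to carnitine; a carrier exchanges it across the inner membrane and CPT2 restores acyl-CoA. Inside, each turn of beta-oxidation runs through an acyl-CoA dehydrogenase, a hydratase, a second dehydrogenase and a thiolase, with electrons leaving through the electron transfer flavoprotein. Many of these genes are known targets of the PPAR and ERR nuclear receptors with their coactivator PGC-1.

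Of the 29 tested genes 24 were lower in YAP5SA and 2 were higher, against 15.5% and 17.4% of all tested genes called lower and higher (32.9% in either direction) (limma on log2(TPM + 1), Benjamini-Hochberg adjusted p under 0.05 over all 13420 genes). Every fold change or log2 difference here is YAP5SA minus YAP5SA-S94A on that scale, which understates changes of low genes. Levels described as so many times or -fold another are instead ratios of TPM. The median difference of the 29 was −0.73, while that of all tested genes was 0.00. In 28 of the 29 both libraries of one form lay beyond both of the other, against 68.2% of all tested genes. Together the 30 genes made up 4766 and 4573 TPM in the YAP5SA libraries and 6454 and 6346 TPM in the YAP5SA-S94A libraries. In bulk RNA, fewer cells of a type and less RNA per cell cannot be told apart.

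**Figure D1:**
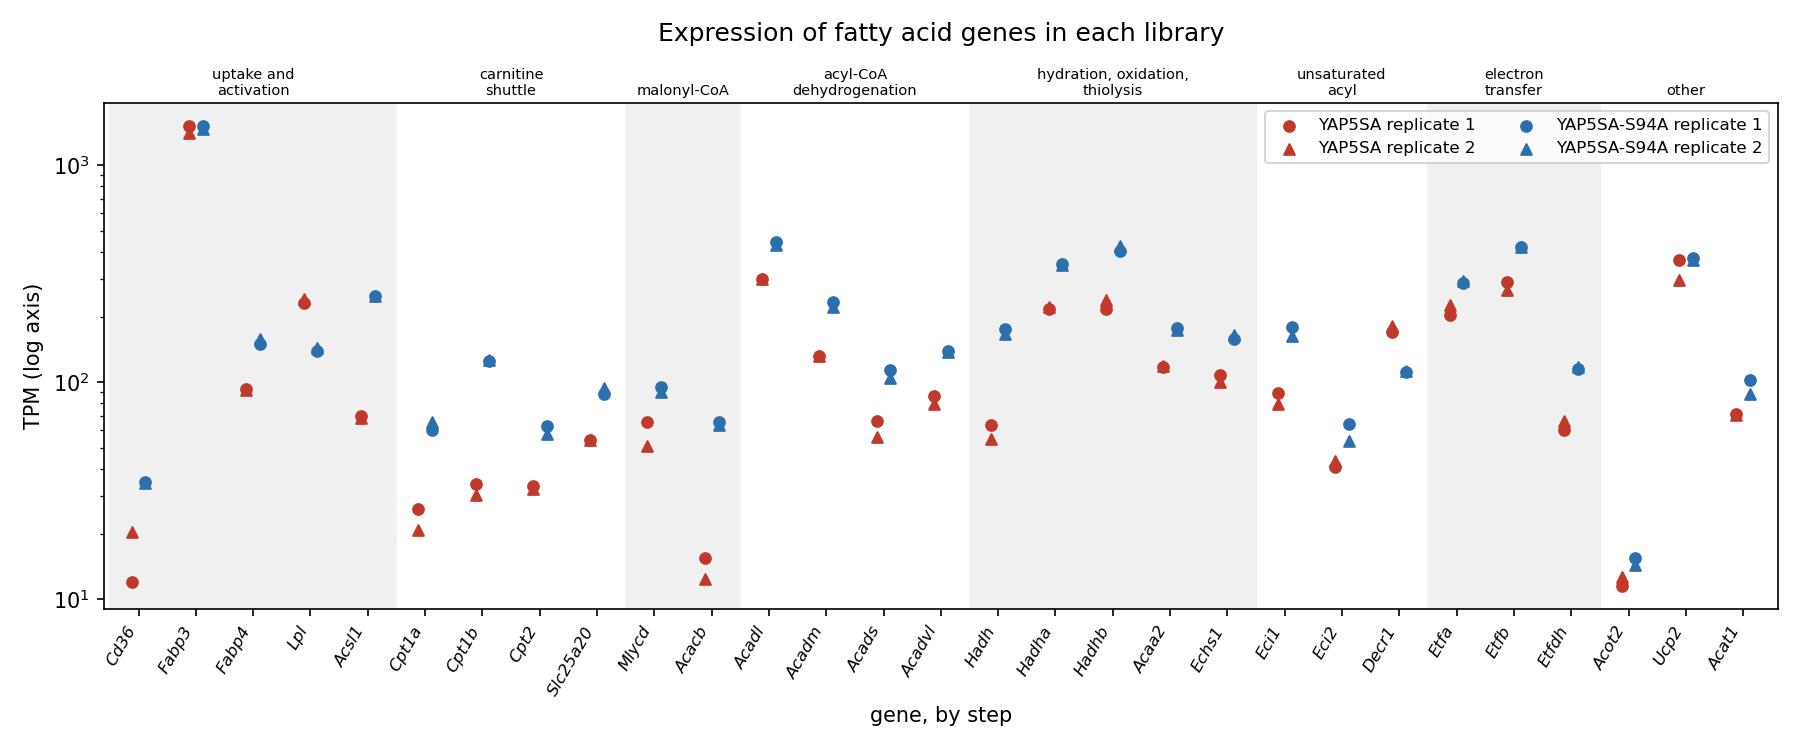
TPM (log axis) of the 29 tested genes in each of the 4 libraries, ordered by step; circles and triangles are replicates 1 and 2, red YAP5SA and blue YAP5SA-S94A. Blue points lie above red ones for most genes, Lpl and Decr1 show the opposite order, and Fabp3 overlaps at 1405 to 1517 TPM.

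The promoters of a few of these genes, picked by hand, are shown because the factors named in this comparison act on DNA. Motif shares over all matched promoters are given after the sequences. They are the 250 bases before the annotated start, from RefSeq on build GRCr8, a later build than that of the deposited tables; 24 of the 30 genes matched an entry and Fabp4, Lpl, Cpt1b, Acadl, Acaa2 and Decr1 did not. Hadhb and Hadha, the 2 subunits of the mitochondrial trifunctional protein, point away from each other with starts 301 bases apart, so most of the stretch printed for Hadhb also lies before Hadha, which fell with it. Acacb and Acadvl hold the nuclear receptor core motif AGGTCA, and Cpt1a holds the TEAD motif GGAATG, on either strand, in capitals. Acsl1, the uptake gene that fell most, holds neither in this stretch.
Hadhb, chr6:31907501-31907750, minus strand: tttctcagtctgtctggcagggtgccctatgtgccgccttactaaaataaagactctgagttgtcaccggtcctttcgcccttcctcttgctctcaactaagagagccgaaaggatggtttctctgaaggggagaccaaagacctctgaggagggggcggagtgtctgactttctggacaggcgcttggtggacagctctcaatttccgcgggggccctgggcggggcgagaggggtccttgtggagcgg
Acacb, chr12:48138215-48138464, minus strand: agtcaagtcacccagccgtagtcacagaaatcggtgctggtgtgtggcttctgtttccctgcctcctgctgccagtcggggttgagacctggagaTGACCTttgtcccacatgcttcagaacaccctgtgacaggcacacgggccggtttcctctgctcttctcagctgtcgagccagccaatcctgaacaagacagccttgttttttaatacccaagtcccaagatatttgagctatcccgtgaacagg
Acadvl, chr10:55236706-55236955, minus strand: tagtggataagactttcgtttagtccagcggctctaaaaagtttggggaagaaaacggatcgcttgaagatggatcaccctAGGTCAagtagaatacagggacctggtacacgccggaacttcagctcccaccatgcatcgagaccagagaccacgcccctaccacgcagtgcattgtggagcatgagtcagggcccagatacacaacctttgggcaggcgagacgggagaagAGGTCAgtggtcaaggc
Acsl1, chr16:52532393-52532642, minus strand: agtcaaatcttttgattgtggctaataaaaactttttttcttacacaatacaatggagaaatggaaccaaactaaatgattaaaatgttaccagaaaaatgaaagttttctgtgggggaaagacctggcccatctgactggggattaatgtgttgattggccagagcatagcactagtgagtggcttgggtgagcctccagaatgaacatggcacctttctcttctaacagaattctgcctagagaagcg
Cpt1a, chr1:209995910-209996159, plus strand: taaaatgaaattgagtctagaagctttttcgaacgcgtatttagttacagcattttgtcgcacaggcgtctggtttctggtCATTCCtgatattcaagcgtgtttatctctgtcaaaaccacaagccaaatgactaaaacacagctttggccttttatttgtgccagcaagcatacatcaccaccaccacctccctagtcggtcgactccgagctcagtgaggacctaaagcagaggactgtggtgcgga

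Over windows of 300 bases (250 before to 50 after the start, both strands), AGGTCA was present in 7 of the 24 promoters or 29.2% (Acacb, Acadvl, Hadhb, Echs1, Eci1, Eci2 and Ucp3), against 15.7% of all 27457 promoters and 11.6% of those of tested genes. GGAATG was present in 3 of 24, or 12.5% (Cpt1a, Slc25a20 and Etfb), against 13.9% of all promoters and 11.3% of those of tested genes. An exact direct repeat of 2 AGGTCA copies with 1 base between them and the ERR element TNAAGGTCA, which both contain AGGTCA, were found in none of the 24 and in 0.0583% and 1.15% of all promoters. A match is only a run of letters in this window, and its absence says nothing about the factor.

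Uptake and activation held the most varied genes. Acsl1 and Cd36 fell, Fabp4 fell, Lpl rose and Fabp3 was not called. Acsl1, the main long-chain acyl-CoA synthetase of heart muscle (chromosome 16, 45755246 to 45821541, rn7), stood at 69.7 and 68.1 TPM in YAP5SA and 249.5 and 250.3 TPM in YAP5SA-S94A, a 3.63-fold higher level in YAP5SA-S94A (log2 difference −1.84, standard error 0.09, limma adjusted p = 2.87e-05). The replicates of each form nearly coincided, and 0.917% of tested genes had a more negative fold change.

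Cd36, the membrane transporter of long-chain fatty acids (chromosome 4, 17317343 to 17410084), stood at 11.97 and 20.4 TPM in YAP5SA and 34.6 and 34.3 TPM in YAP5SA-S94A (log2 difference −1.09, standard error 0.23, limma adjusted p = 0.0101). The YAP5SA libraries were the lower ones but differed from each other more than for any other tested gene of the set. The deposited coverage of Cd36 was also the lowest of the 29, between 1.23 and 3.47 reads per base, where the median over genes and libraries was 204. That was low for its TPM: in YAP5SA, Acot2 had coverage of 17.6 and 14.4 at 11.5 and 12.6 TPM. Acsl1 coverage was also low for its TPM, at 25.4 and 18.4 in YAP5SA. The reason was not tested. Fabp4, a fatty acid-binding protein best known from adipocytes, endothelium and macrophages (chromosome 2, 91580879 to 91585567), stood at 93.0 and 91.8 TPM against 151 and 158 TPM (log2 difference −0.74, standard error 0.09, limma adjusted p = 0.00121).

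Lpl, the lipase that frees fatty acids from circulating triglyceride (chromosome 16, 20830055 to 20853855), ran the other way. It stood at 232 and 242 TPM in YAP5SA and 139 and 144 TPM in YAP5SA-S94A, 1.68-fold higher in YAP5SA (log2 difference 0.74, standard error 0.09, limma adjusted p = 0.00101). Fabp3, the heart fatty acid-binding protein and the most abundant gene of the set (chromosome 5, 142651962 to 142658707), stood at 1517 and 1405 TPM against 1517 and 1463 TPM. The Fabp3 groups overlapped, the difference was −0.03 (SE 0.09, limma adjusted p = 0.832), and its sign changed without YAP5SA replicate 2 (0.026). Fabp3 is also the only gene of the set that overlaps an expressed gene, Zcchc17 on the opposite strand at 29.9 TPM, itself not called (log2 fold change 0.06, limma adjusted p = 0.744). Its share of the set's summed TPM was 31.8% and 30.7% for YAP5SA and 23.5% and 23.1% for YAP5SA-S94A.

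All 4 genes of the carnitine shuttle fell. Cpt1b, the muscle form of CPT1 (chromosome 7, 120491354 to 120500833), stood at 34.1 and 30.3 TPM in YAP5SA and 125 and 127 TPM in YAP5SA-S94A (log2 difference −1.94, standard error 0.11, limma adjusted p = 4.21e-05). Cpt1a, the form of liver and of the immature heart (chromosome 1, 200564634 to 200627059), stood at 26.1 and 21.0 TPM against 60.5 and 65.7 TPM (log2 difference −1.39, standard error 0.14, limma adjusted p = 4.38e-04). Both YAP5SA libraries lay well below both others for each isoform.

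Cpt2, which restores acyl-CoA inside the mitochondrion (chromosome 5, 122664677 to 122682126), stood at 33.3 and 32.2 TPM against 62.8 and 57.5 TPM (log2 difference −0.86, standard error 0.11, limma adjusted p = 0.00136). Slc25a20, the carnitine-acylcarnitine carrier of the inner membrane (chromosome 8, 109365056 to 109386512), stood at 54.4 and 54.1 TPM against 88.5 and 93.9 TPM (log2 difference −0.74, standard error 0.10, limma adjusted p = 0.00166). The outer-membrane enzymes thus had the more negative fold changes and the inner-membrane proteins the smaller ones.

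The enzymes that make and remove malonyl-CoA, the inhibitor of CPT1, both fell, and unequally. Acacb, the mitochondrion-bound acetyl-CoA carboxylase that makes it (chromosome 12, 42365800 to 42477651), stood at 15.5 and 12.4 TPM in YAP5SA and 65.5 and 63.8 TPM in YAP5SA-S94A. Its fold change of −2.14 (SE 0.14, limma adjusted p = 6.51e-05) was the most negative of the 29, with 0.484% of tested genes below it. Mlycd, the malonyl-CoA decarboxylase that removes it (chromosome 19, 47447931 to 47463794), stood at 65.8 and 50.8 TPM against 95.6 and 90.6 TPM (log2 difference −0.68, standard error 0.14, limma adjusted p = 0.0096).

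Ratios within a library show the unequal falls directly. Mlycd stood at 4.25 and 4.08 times Acacb in YAP5SA and at 1.46 and 1.42 times in YAP5SA-S94A. Cpt1b stood at 1.31 and 1.45 times Cpt1a in YAP5SA and at 2.07 and 1.92 times in YAP5SA-S94A, so the muscle form led in every library and by less in YAP5SA. Fabp3 stood at 16.3 and 15.3 times Fabp4 in YAP5SA and at 10.1 and 9.24 times in YAP5SA-S94A. The forms separated fully in each of these 3 ratios and in that of Hadha to Hadhb given below, and for each of the 4 the exact two-sided permutation p was 0.333, also after Benjamini-Hochberg adjustment, the smallest that 2 libraries against 2 can give. No ratio of Ucp2 to Ucp3 is given, because Ucp3 was listed at 0.

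**Figure D2:**
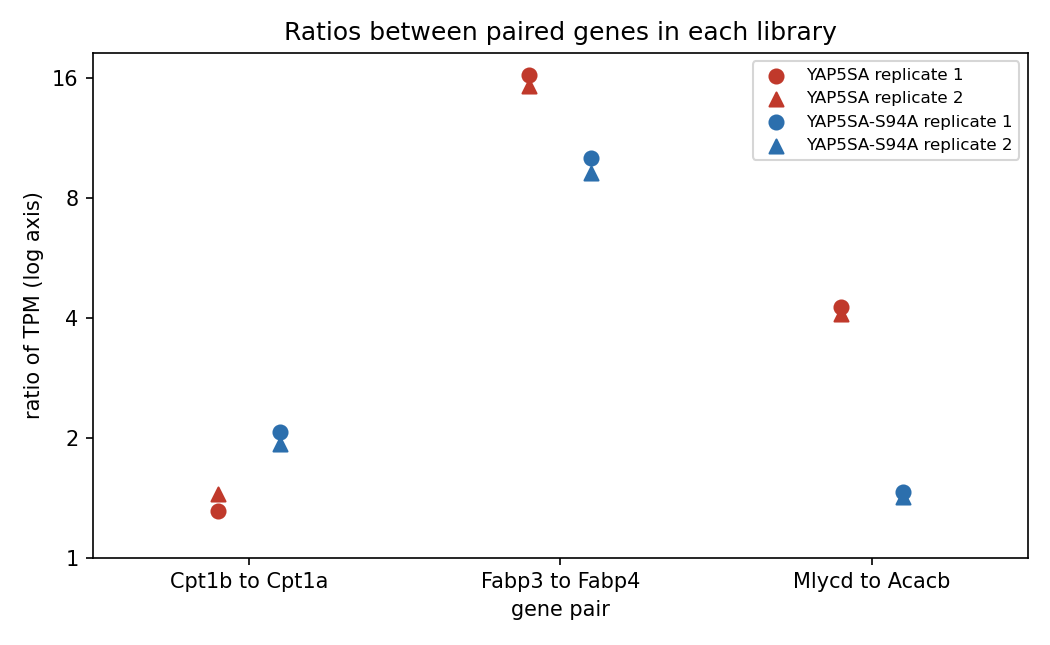
Ratio of TPM between paired genes (log axis) in each library; red YAP5SA, blue YAP5SA-S94A, circles and triangles replicates 1 and 2. Cpt1b to Cpt1a was lower in the YAP5SA libraries (1.31 and 1.45 against 2.07 and 1.92), while Fabp3 to Fabp4 and Mlycd to Acacb were higher in them.

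The acyl-CoA dehydrogenases, which take the first step of each beta-oxidation turn and differ in the chain length they prefer, fell by similar amounts. Acadl, for long chains (chromosome 9, 68333981 to 68372149), was the most abundant, at 299 and 299.6 TPM in YAP5SA and 442 and 427 TPM in YAP5SA-S94A (log2 difference −0.54, standard error 0.08, limma adjusted p = 0.00317). Acadm, for medium chains (chromosome 2, 242858865 to 242883036), stood at 132 in both YAP5SA libraries against 234 and 222 TPM (log2 fold change −0.79, limma adjusted p = 7.97e-04). Acads, for short chains, fell by 0.84 on the log2 scale to 66.0 and 55.7 TPM, and Acadvl, the membrane-bound enzyme for very long chains, by 0.73 to 86.1 and 79.6 TPM (limma adjusted p = 0.00208 and 0.00148). The 4 fold changes lay between −0.84 and −0.54.

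The later steps of the turn fell too, with Hadh standing apart. Hadh, the 3-hydroxyacyl-CoA dehydrogenase for short and medium chains (chromosome 2, 219787935 to 219830335), stood at 63.5 and 54.7 TPM in YAP5SA and 175 and 167 TPM in YAP5SA-S94A (log2 difference −1.52, standard error 0.11, limma adjusted p = 1.05e-04). That was the most negative fold change of the 15 beta-oxidation genes, and 1.67% of tested genes lay below it.

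The trifunctional protein, which handles long chains, is encoded by Hadha and Hadhb, the divergent pair whose shared upstream stretch is printed above. Hadha (chromosome 6, 26187969 to 26227605) stood at 219 and 223 TPM against 352 and 347 TPM (log2 difference −0.66, standard error 0.09, limma adjusted p = 0.00134). Hadhb (chromosome 6, 26153572 to 26187668) stood at 218 and 239 TPM against 404 and 426 TPM (log2 difference −0.86, standard error 0.09, limma adjusted p = 6.32e-04). Hadha stood at 1.00 and 0.936 times Hadhb in YAP5SA and 0.873 and 0.814 times in YAP5SA-S94A.

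Besides this pair, 2 genes of the set had an expressed neighbour starting within 1000 bases on the opposite strand. Etfdh lay beside C2h4orf46 and Acaa2 beside LOC120098116. Neither neighbour was called, with log2 fold changes of 0.25 (limma adjusted p = 0.339) and 1.44 (limma adjusted p = 0.12). Both were low, at mean levels of 4.88 and 3.31 TPM, so the direction of their differences is uncertain. Echs1, the short-chain enoyl-CoA hydratase, fell by 0.63 on the log2 scale to 108 and 100.1 TPM from 158 and 165 TPM (limma adjusted p = 0.00263). Acaa2, the thiolase that closes the turn, fell by 0.57 to 118 and 119 TPM from 178 and 174 TPM (limma adjusted p = 0.00308).

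Enzymes that reshape the double bonds of unsaturated fatty acids split. Eci1, an enoyl-CoA isomerase (chromosome 10, 13456715 to 13470061), stood at 89.2 and 79.8 TPM in YAP5SA and 181 and 163 TPM in YAP5SA-S94A (log2 difference −1.02, standard error 0.11, limma adjusted p = 5.65e-04). Decr1, the mitochondrial 2,4-dienoyl-CoA reductase (chromosome 5, 29411172 to 29439054), was higher in YAP5SA, at 170 and 181 TPM against 112 and 113 TPM (log2 difference 0.64, standard error 0.09, limma adjusted p = 0.00224). It was the only beta-oxidation gene among the 15 that rose, and both YAP5SA libraries lay above both others. Eci2, the second isomerase, stood at 40.8 and 43.6 TPM against 64.1 and 53.6 TPM (log2 fold change −0.47, limma adjusted p = 0.0285). Its call was lost without YAP5SA replicate 1 (adjusted p = 0.0683) and without YAP5SA-S94A replicate 1 (adjusted p = 0.319).

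The electron transfer flavoprotein, which takes electrons from the acyl-CoA dehydrogenases, and its dehydrogenase fell. Etfb, the beta subunit (chromosome 1, 93851908 to 93866072), stood at 291 and 267 TPM against 418 and 419 TPM (log2 difference −0.59, standard error 0.09, limma adjusted p = 0.00281). Etfdh, which passes the electrons to ubiquinone (chromosome 2, 164740547 to 164762754), stood at 60.6 and 66.6 TPM against 115 and 118 TPM (log2 difference −0.86, standard error 0.10, limma adjusted p = 9.08e-04). Etfa, the alpha subunit, had a smaller difference, at 203 and 227 TPM against 288 and 292 TPM (log2 fold change −0.43, limma adjusted p = 0.0129). Leaving out YAP5SA-S94A replicate 1 ended the Etfa call (adjusted p = 0.0924), as did leaving out replicate 2 (adjusted p = 0.111).

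Of the remaining genes only Acat1 was called. Ucp2, an uncoupling protein family member of the inner membrane (chromosome 1, 154839242 to 154845612), stood at 366 and 295 TPM against 373 and 368 TPM and did not pass the test (log2 difference −0.17, limma adjusted p = 0.307). The Ucp2 log2 fold change rested on which YAP5SA library was kept: it was called lower without replicate 1 (−0.33, adjusted p = 0.0173) and stood at −0.015 without replicate 2 (adjusted p = 0.859). Acot2, a mitochondrial acyl-CoA thioesterase that shares much of its sequence with its relatives, so that the division of reads among them is uncertain, stood at 11.5 and 12.6 TPM against 15.4 and 14.3 TPM and did not pass the test (log2 difference −0.28, limma adjusted p = 0.184). Acat1, the acetoacetyl-CoA thiolase of ketone and isoleucine metabolism, stood at 71.5 and 70.5 TPM against 102 and 88.0 TPM (log2 fold change −0.41, limma adjusted p = 0.028). The Acat1 call was lost without YAP5SA replicate 2 (adjusted p = 0.0551), YAP5SA-S94A replicate 1 (0.341) or YAP5SA-S94A replicate 2 (0.0629).

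**Figure D3:**
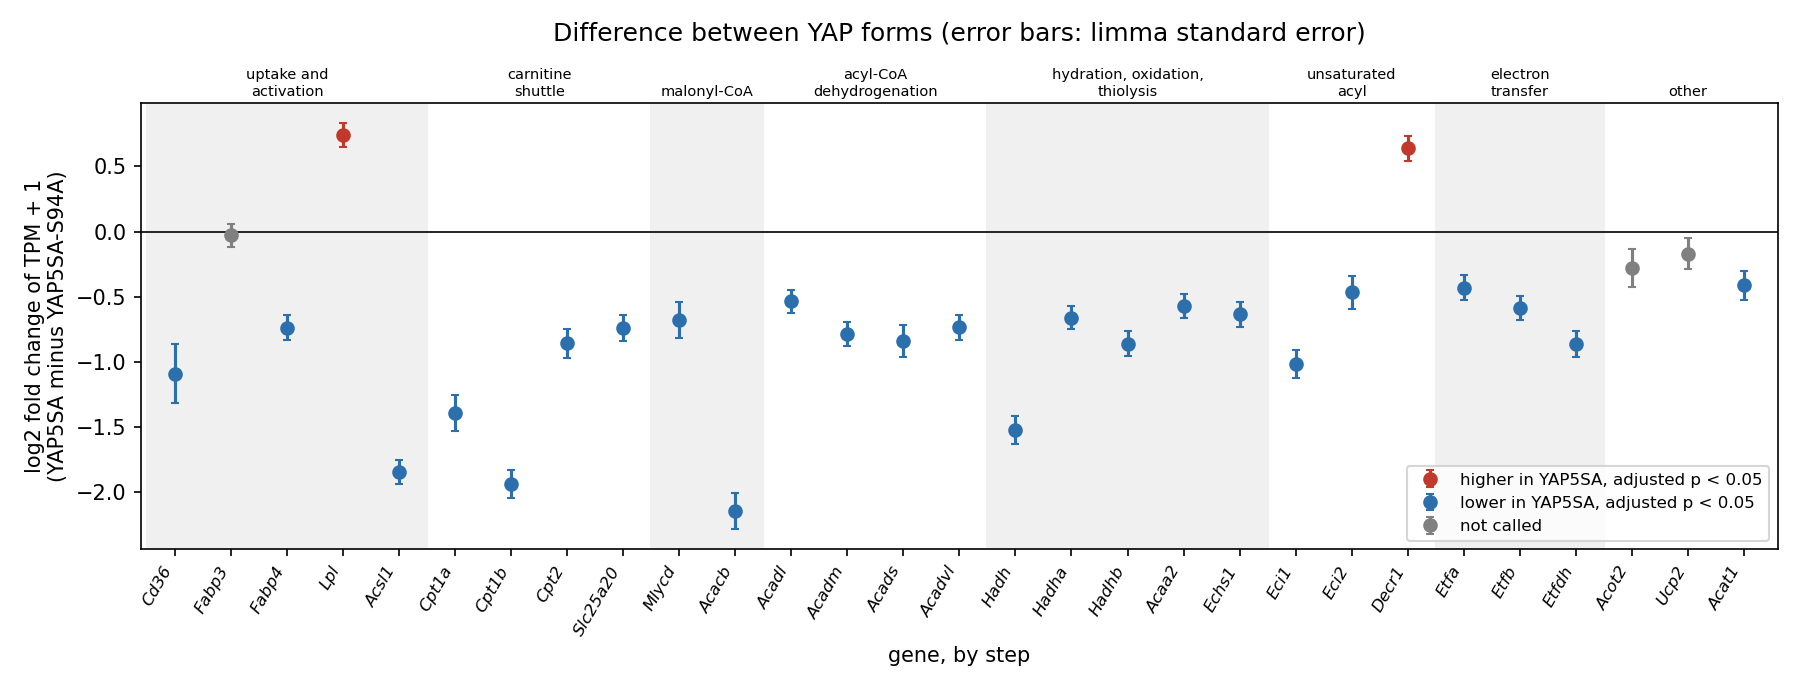
Log2 fold change of TPM + 1 (YAP5SA minus YAP5SA-S94A, n = 2 per form) with limma standard errors for the 29 tested genes, by step; blue lower, red higher, grey not called. The most negative values are those of Acacb (−2.14), Cpt1b (−1.94), Acsl1 (−1.84) and Hadh (−1.52), and 2 genes lie above 0 with a call, Lpl and Decr1.

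Set side by side, the steps differed in how far they fell. Among the 5 uptake and activation genes 3 fell and 1 rose, among the 4 shuttle genes 4 fell, and among the 15 beta-oxidation genes (with the double-bond enzymes and the flavoprotein) 14 fell and 1 rose. The median log2 fold change was −0.74 for uptake and activation, −1.13 for the shuttle and −0.66 for beta-oxidation. Summed over its genes, the shuttle stood at 148 and 138 TPM in YAP5SA and 337 and 344 TPM in YAP5SA-S94A, a ratio of means of 0.42, and beta-oxidation at 2164 and 2167 against 3375 and 3328 TPM, a ratio of 0.646. Uptake and activation stood at 1924 and 1827 against 2090 and 2051 TPM (ratio 0.906), or 407 and 422 against 573 and 587 TPM without Fabp3 (ratio 0.714). Of the sums without Fabp3, Lpl, which rose, gave 232 and 242 TPM in YAP5SA and 139 and 144 TPM in YAP5SA-S94A. The uptake ratios thus rest largely on Fabp3 and Lpl, and the difference between steps was not tested. The shuttle's sum was thus 6.83% and 6.35% of the beta-oxidation sum in YAP5SA and 9.98% and 10.3% in YAP5SA-S94A. Within the set, 7 genes had a log2 fold change of −1 or below (Acacb, Cpt1b, Acsl1, Hadh, Cpt1a, Cd36 and Eci1), and the other 17 called lower lay above that. Across the 29 genes, fold change and mean level correlated weakly (Pearson r = 0.34, Spearman rho = 0.42), a description over genes that share the same libraries.

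Other genes of fatty acid metabolism, in 7 lists of 115 genes with no member among them, were less uniform: of 101 tested, 41 were lower and 12 higher in YAP5SA, with a median of −0.33. The peroxisomal beta-oxidation list, which leaves out Decr2, Nudt7 and Eci3 (counted in another list below), had 5 of 14 tested genes lower and 0 higher. It was led by Phyh, the phytanoyl-CoA hydroxylase, which belongs to alpha-oxidation rather than beta-oxidation (109 and 103 against 372 and 359 TPM, limma adjusted p = 3.27e-05). Next were Scp2, a lipid transfer protein and thiolase (72.1 and 86.3 against 138 and 142 TPM), and the reductase Pecr (25.7 and 22.3 against 40.8 and 42.4 TPM). The peroxisomal count was 3 without either YAP5SA-S94A library. Triglyceride storage and lipolysis had 10 of 18 lower and 1 higher; Plin4, a lipid droplet coat protein, stood at 4.31 and 2.93 against 20.9 and 22.5 TPM, Cidea, which acts on lipid droplet growth, at 60.04 and 57.2 against 198 and 207 TPM, and Fitm1, a lipid droplet formation protein, at 14.8 and 13.9 against 42.2 and 39.0 TPM.

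A list of mostly mitochondrial enzymes of acyl-CoA and related metabolism, called other mitochondrial enzymes below, split, with 8 of 20 tested genes lower and 4 higher. It also held the peroxisomal enzymes Decr2 (not called), Nudt7 (called lower) and Eci3 (called higher). Acot13, a thioesterase, stood at 30.0 and 28.9 against 71.3 and 61.0 TPM, Mcee, the methylmalonyl-CoA epimerase, at 19.6 and 17.2 against 39.1 and 43.5 TPM, and Hibadh, of valine breakdown, at 208 and 211 against 107 and 103 TPM, so Hibadh rose. The lower count was 5 without either YAP5SA-S94A library, and the higher count was 2 without YAP5SA-S94A replicate 2. Other uptake and activation genes had 6 of 14 tested higher and 3 lower; Slc27a3, a fatty acid transport family member, rose (90.01 and 57.4 against 25.04 and 23.1 TPM), as did the acyl-CoA synthetase Acsl4 (28.8 and 31.7 against 16.4 and 18.8 TPM), and Vldlr, the very low density lipoprotein receptor, fell (53.6 and 45.4 against 88.6 and 124 TPM). The higher count there was 2 without YAP5SA-S94A replicate 1. Among 8 tested genes listed under carnitine supply and export, with Acaca of fatty acid synthesis counted there, 1 rose and 1 fell. The mitochondrial carrier Slc25a29, which mainly carries basic amino acids, rose (16.8 and 13.3 against 4.77 and 2.81 TPM). The organic cation transporter Slc22a4 fell (1.76 and 1.11 against 3.46 and 2.99 TPM, limma adjusted p = 0.0436). That Slc22a4 call was lost without YAP5SA replicate 2 (adjusted p = 0.0935), YAP5SA-S94A replicate 1 (0.21) or replicate 2 (0.0994). The number called lower there was 0 without any of those 3 libraries and 2 without YAP5SA replicate 1.

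Ketone body genes had 2 of 6 tested genes lower. Oxct1, which activates acetoacetate in the heart, stood at 132 and 159 against 198 and 211 TPM (limma adjusted p = 0.0166; 0.0969 without YAP5SA-S94A replicate 2). The count was 1 without YAP5SA replicate 2 and without YAP5SA-S94A replicate 2.

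The regulators of the pathway had 12 of 21 tested genes lower and 0 higher. Ppara, the fatty acid-sensing nuclear receptor, stood at 5.98 and 5.63 TPM in YAP5SA and 15.5 and 20.5 TPM in YAP5SA-S94A (log2 fold change −1.47, limma adjusted p = 0.0011). Rxrg, a retinoid X receptor, the partner class of the PPARs, had the most negative fold change of the list (−3.33; 4.55 and 3.998 against 54.9 and 49.2 TPM). Esrrg, an estrogen-related receptor, fell by 1.11 on the log2 scale, the coactivator Ppargc1a by 0.92 (24.0 and 17.3 against 37.8 and 41.1 TPM) and Esrra by 0.57 (80.3 and 54.8 against 99.8 and 97.6 TPM, limma adjusted p = 0.0434). The Esrra log2 fold change was −0.29 without YAP5SA replicate 2 (adjusted p = 0.0379), and its call was lost with no filter (0.142), with no intensity trend (0.101) and on FPKM (0.0598). The receptors and the genes of oxidation were thus lower in the same libraries; no link between them was tested.

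**Figure D4:**
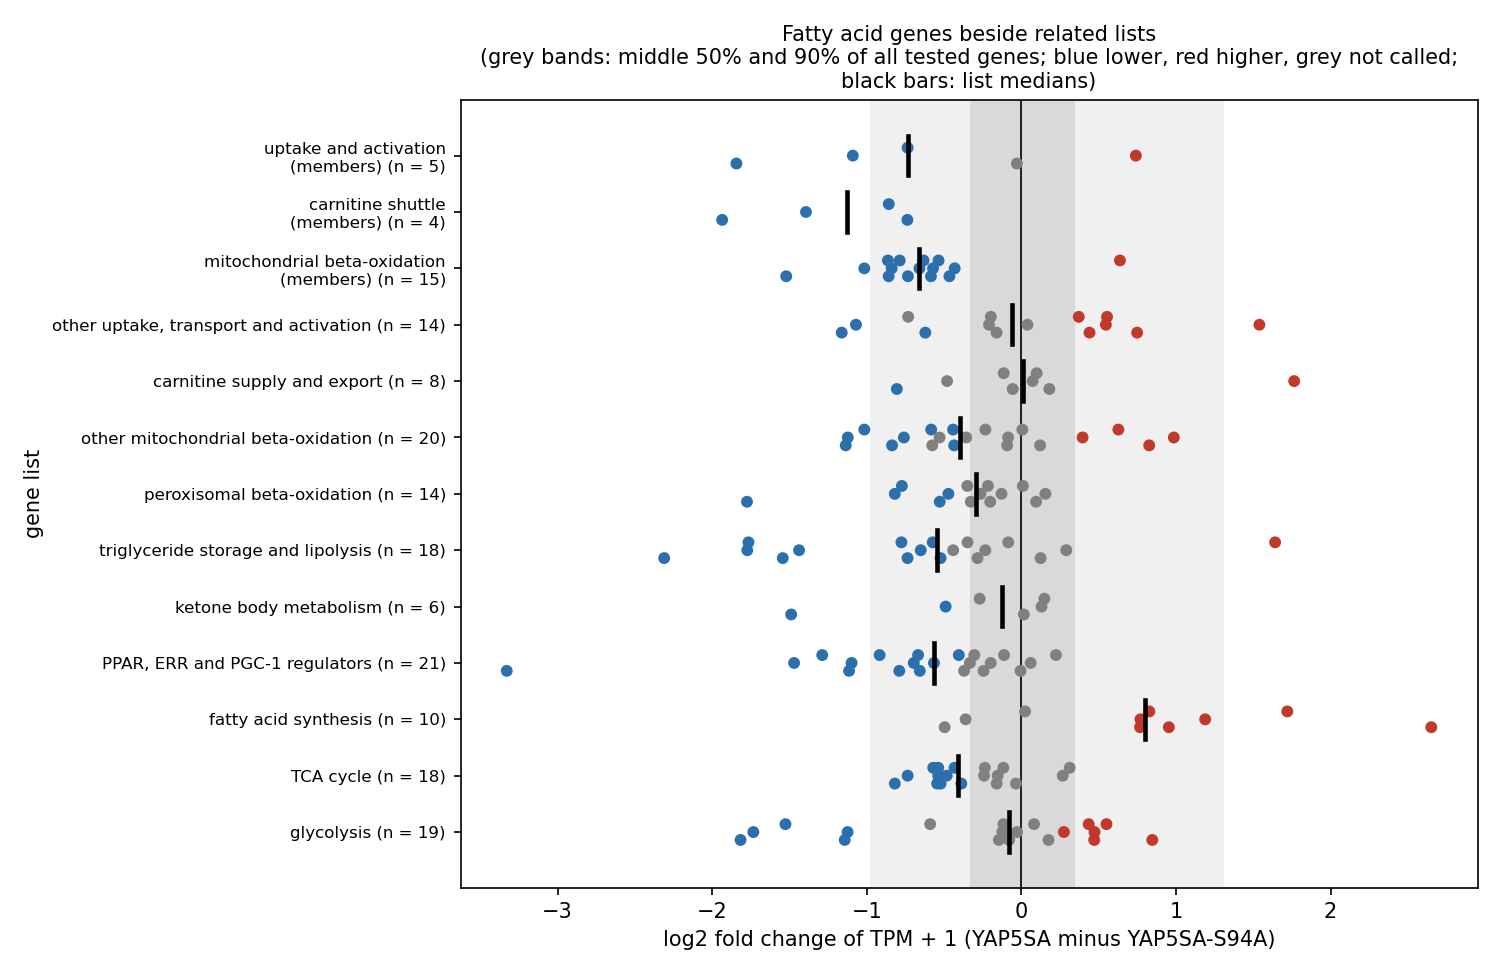
Log2 fold change of TPM + 1 (YAP5SA minus YAP5SA-S94A) of each tested gene in the 3 main steps and 10 related lists; black bars are list medians and grey bands hold the middle 50% and 90% of all tested genes (−0.33 to 0.34 and −0.97 to 1.30). The shuttle and beta-oxidation points lie mostly left of 0, fatty acid synthesis mostly right of it.

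Fatty acid synthesis, the opposite route, had 7 of 10 tested genes higher and 0 lower, with a median of 0.80. Acaca, an acetyl-CoA carboxylase of this route, was counted in the carnitine supply list instead and was not called (log2 fold change 0.18, limma adjusted p = 0.417). Elovl6, an elongase, stood at 30.1 and 33.8 against 4.31 and 4.17 TPM, Fads1, a desaturase, at 81.6 and 79.2 against 33.4 and 36.0 TPM, and Scd2, another desaturase, at 490.2 and 475 against 275 and 290.2 TPM. Without either YAP5SA library in turn, 1 gene was called lower.

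The tricarboxylic acid cycle, which burns the acetyl-CoA that beta-oxidation makes, had 10 of 18 genes lower and 0 higher, with a median of −0.41. Among them were Idh2 (555 and 483 against 896 and 831 TPM) and Sdhb (286 and 295 against 428 and 435 TPM). The lower count was 6 without either YAP5SA-S94A library, and 1 gene was called higher without either YAP5SA library. The beta-oxidation sum was 41.5% and 43.2% of the cycle's sum in YAP5SA and 48.8% and 49.2% in YAP5SA-S94A. Glycolysis had 5 of 19 lower and 6 higher. The genes of smallest p were the muscle enolase Eno3, the insulin-responsive glucose transporter Slc2a4 and the muscle phosphofructokinase Pfkm, which fell by 1.73, 1.82 and 1.53 on the log2 scale; Pfkm overlaps Senp1 on the opposite strand, so the split of reads there is uncertain. Higher genes, picked here for their values, included the enolase Eno1 (0.85, limma adjusted p = 6.87e-04), the phosphofructokinase Pfkp (0.55, limma adjusted p = 0.00416) and the mutase Pgam1 (0.47, limma adjusted p = 0.00565). The list's higher count was 2 without YAP5SA-S94A replicate 2.

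Libraries and markers were looked at beside these results. The ratio of deposited coverage to FPKM corresponded to between 4.02 and 5.10 gigabases of aligned sequence. The share of TPM from the mitochondrial chromosome was 7.53% and 10.2% for YAP5SA and 12.6% and 14.03% for YAP5SA-S94A; with that chromosome left out and TPM rescaled, the set still had 24 genes lower and 2 higher. The 12 cardiomyocyte markers summed to 29542 and 30527 TPM against 34612 and 34740 TPM, all of them expressed, with 7 lower and 2 higher. Myh6 and Tnni3 were among the lower ones. The higher ones were Actc1 (6619 and 6776 against 4597 and 4270 TPM) and Tnnc1 (3510 and 3620 against 2807 and 2699 TPM). The higher count was 0 with no filter and 1 with no intensity trend.

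For the cell types known for Cd36, Fabp4 and Lpl, 10 macrophage markers summed to 562 and 538 TPM in YAP5SA and 849.6 and 844 TPM in YAP5SA-S94A, with 3 lower and 1 higher. Lyz2, called lower, stood at 438 and 428 against 714 and 710 TPM, so the lower macrophage sum rests mostly on this gene. Csf1r, called higher, stood at 38.2 and 37.5 against 14.6 and 12.9 TPM. The 10 endothelial markers summed to 38.1 and 38.6 against 44.6 and 44.6 TPM, with 1 lower and 2 higher (1 higher on FPKM). Kdr, called lower, stood at 3.97 and 3.33 against 21.3 and 19.9 TPM, so the lower sum rests on this gene. Tek (10.2 and 13.0 against 3.57 and 3.79 TPM) and Flt1 (4.67 and 4.62 against 2.54 and 2.78 TPM, limma adjusted p = 0.049) were called higher. Of 6 adipocyte markers Adipoq, Plin1, Cidec and Retn were listed at 0 in all libraries; Lep, called higher, stood at 3.55 and 3.06 TPM in YAP5SA, was listed at 0 in both other libraries and so passed the filter through YAP5SA alone, and 1 marker was called lower without YAP5SA replicate 1. The 10 fibroblast markers summed to between 6778 and 8567 TPM with overlapping groups (1 higher, 3 without YAP5SA replicate 2; 2 lower). The 7 smooth muscle and pericyte markers summed to 322 and 282 against 231 and 244 TPM (1 higher, 2 with a mean TPM of at least 5). Cnn1, called higher, stood at 115 and 99.0 against 51.6 and 51.0 TPM, so the higher sum rests mostly on this gene. Of the 7, 3 had log2 fold changes below 0. The 6 epicardial markers summed to 98.6 and 83.1 against 49.2 and 47.3 TPM (3 higher). Upk3b, 1 of the 3, stood at 22.4 and 18.2 against 0.611 and 0.544 TPM and so passed the filter through YAP5SA alone. The 3 epicardial markers not called had log2 fold changes below 0. The part of these differences in the results above was not tested.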

How the data were processed

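The members and gene lists were chosen with earlier results of these data known. Reads were processed with fastp, HISAT2 2.2.1 and StringTie 2.2.1 against rat build rn7, per the submitters' processing notes, which give no settings; use of strand in counting is not given in the sources used here. The authors deposited 3 measures per gene, named TPM, FPKM and Coverage in the file headers. FPKM was a fixed multiple of TPM within a library. Coverage was read here as a read coverage signal per base not scaled for depth. Counts were not used here, so limits from counting error cannot be given. The highest ratio of coverage to FPKM shared by at least 1000 entries was read as aligned gigabases.

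TPM was summed over entries sharing a name and tested on the scale of log2(TPM + 1) by the moderated statistic of limma 3.58.1, run in R 4.3.3 with trend = TRUE (degrees of freedom were 2 residual and 5.09 prior) for 13420 genes with a mean of at least 1 TPM. The fit was tested on simulated data. Tables were made with pandas 2.3.3 and figures with matplotlib 3.10.9 in Python 3.11.15. All 30 genes are named. From each further list up to 3 called genes of smallest p are named, and Ppara, Ppargc1a, Esrra and Rxrg always; others were named after their values were seen, and a few genes that the rule names are not reported here. Values in pairs are replicates 1 and 2. Of the series, 6 CUT&RUN samples are not used here.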

Additional observations from a re-analysis of the deposited data

How the results depend on the processing

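Of the 26 called genes of the set 22 kept their direction and call in all 15 alternatives; Cd36, Eci2, Etfa and Acat1 lost it in some, and no called gene changed sign. The set's count of lower genes was between 20 and 24 and its count of higher genes 2 throughout. Over all genes, 1439 were called higher and 1046 lower at a threshold of 0.01 (2337 and 2083 at 0.05), and without 1 library the lower count was between 1312 and 2739. The beta-oxidation median, −0.66, was −0.71 with quantile normalization and −0.73 with the mitochondrial chromosome left out. The log2 difference of the Mlycd to Acacb ratio, 1.46, was 1.53 with a pseudocount of 0.1 and 1.37 with FPKM. The uncalled Fabp3 log2 fold change (−0.03) lay between −0.084 and 0.026 without 1 library, the latter without YAP5SA replicate 2. Cd36 was not called with no filter (adjusted p = 0.0648). With the replicate number as a block, the genes called higher in YAP5SA were 2726 and the genes called lower in YAP5SA 2593, with 24 and 2 of the set lower and higher. The deviations of same-numbered libraries correlated at 0.101 across genes, and the labels name no shared source. With 2 pairs this cannot show whether the numbers pair the libraries, so they were not paired in the main fit. Over all alternatives the counts of pathway and comparison lists that moved by over 1.5 times ran from 2 to 6 (other uptake, higher) and 1 to 4 (lower), 0 to 2 (carnitine supply, lower), 2 to 4 and 4 to 11 (other mitochondrial enzymes, higher and lower), 3 to 6 (peroxisomal, lower), 0 to 3 (ketone bodies, lower), 0 to 2 (synthesis, lower), 0 to 1 and 6 to 13 (tricarboxylic acid cycle, higher and lower) and 2 to 6 (glycolysis, higher). Those of marker lists ran from 0 to 3 and 4 to 8 (cardiomyocyte, higher and lower), 1 to 3 (fibroblast, higher), 1 to 2 (endothelial, higher; smooth muscle and pericyte, higher), 0 to 1 (adipocyte, higher and lower) and 0 to 1 (epicardial, lower); the cause was not tested. With 2 libraries a form, precision comes from the variance shared across genes; leaving out 1 library assumes that the lone library varies like the other form.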

Other observations

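The acyl-CoA synthetase family, which traps fatty acids in the cell, did not move as one. While Acsl1 fell, Acsl3 stood at 35.8 and 42.1 TPM in YAP5SA and 24.2 and 28.5 TPM in YAP5SA-S94A (limma adjusted p = 0.0235), and Acsl5 at 108 and 130.1 against 75.8 and 85.5 TPM (limma adjusted p = 0.014). Both rose, and so did the binding protein gene Fabp5, at 285 and 284 against 199 and 220 TPM (limma adjusted p = 0.0108). These 3 calls were lost without YAP5SA-S94A replicate 1 (adjusted p = 0.193, 0.0872 and 0.173), and that of Acsl3 also without YAP5SA replicate 2 (0.0688). Among lipid droplet genes, Plin5, which ties droplets to mitochondria, stood at 0.509 and 0.366 against 3.63 and 4.14 TPM, so that it passed the filter on low values through YAP5SA-S94A alone and is given as values, and Dgat2, of triglyceride synthesis, at 17.9 and 15.0 against 3.71 and 5.59 TPM (limma adjusted p = 0.00132). These genes were named after their values were seen.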
